A study of Caenorhabditis elegans with 2 samples.

Results

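The tRNA genes of the Caenorhabditis elegans X chromosome were examined for binding of HMG-1.1. All genes that the Ensembl annotation of the WBcel235 assembly (the ce11 build) types as tRNA on X were taken, which gave 276 of the 612 nuclear tRNA genes, or 45.1%. A gene was called marked when a peak summit of the authors' conservative list, which holds 4277 peaks, lay within 500 bp of the gene's annotated start. By that rule 179 of the 276 genes were marked and 97 were not, beside 11.3% of the X protein-coding genes and 8.19% of all annotated nuclear genes. The annotation alone decided which genes belong to the set, so the share that was marked was not fixed by the choice. The set itself was chosen with earlier results of these data known.

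The data are chromatin immunoprecipitation sequencing of whole fourth-stage (L4) larvae 48 h old, from worms synchronised by starving hatched L1 larvae after bleaching. Both samples are biological replicates of 1 group, strain RW12311, which carries a TY1::EGFP::3xFLAG::hmg-1.1 insertion on chromosome II made with CRISPR, and the precipitation used an anti-GFP antibody on sonicated chromatin. There is no second genotype, stage or treatment, and the control experiment named in the labels was not analysed here, so the signal that an untagged or input sample would give at tRNA genes was not compared. The chromatin came from whole animals, so binding in a few cells and weaker binding in all cells cannot be told apart, and the labels name no tissue whose markers could be checked.

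HMG-1.1 is an HMG-box protein, of a family of plentiful nuclear proteins that bind and bend DNA rather independently of its sequence. A tRNA gene is transcribed by RNA polymerase III from a promoter inside the gene. The factor TFIIIC binds the A box and the B box, short elements that also encode the D and T arms of the tRNA, TFIIIB is then placed just upstream of the start, and a run of T residues ends transcription. Worm tRNA genes are scattered singly and in small groups, many of them within introns of protein-coding genes. Most tRNA genes share their sequence with at least 1 other tRNA gene.

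The genes that the results turn on are shown with the internal elements in capitals. Capitals mark the A box core (TNGNNNAG, looked for from the first 12 bases), the B box core (GTTCNANNC, looked for in the last 35 bases) and, in genes without an intron, the anticodon. A gene with no A box core in capitals has none of exactly that pattern. Sequences are from the RefSeq copy of WBcel235, 5' to 3' on the strand of the gene. The first set is the strongest marked gene of arginine, tyrosine, leucine and lysine and 1 gene of the strongest serine pair.
C18A11.t2, Arg: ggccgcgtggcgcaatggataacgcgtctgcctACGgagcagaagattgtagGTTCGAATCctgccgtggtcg
R11.t1, Tyr: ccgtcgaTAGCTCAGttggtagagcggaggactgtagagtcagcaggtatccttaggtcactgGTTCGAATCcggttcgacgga
C04A11.t1, Leu: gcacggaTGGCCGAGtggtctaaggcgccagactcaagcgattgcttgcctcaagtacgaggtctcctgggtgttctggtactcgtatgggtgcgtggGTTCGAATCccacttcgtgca
C33G3.t2, Lys: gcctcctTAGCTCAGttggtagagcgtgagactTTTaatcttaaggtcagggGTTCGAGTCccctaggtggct
C53C7.t1, Ser: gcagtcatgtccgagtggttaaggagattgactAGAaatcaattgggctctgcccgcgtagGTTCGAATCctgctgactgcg
They lie at chrX:8036685-8036757, minus strand, chrX:16209769-16209852, minus strand, chrX:13665555-13665673, plus strand, chrX:14063946-14064018, minus strand and chrX:13046578-13046659, plus strand. R11.t1 and C04A11.t1 are printed with their introns.

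The second set shows large families of identical copies in which marked and unmarked genes were mixed, for leucine, proline, glutamine and histidine.
C04E7.t1, Leu: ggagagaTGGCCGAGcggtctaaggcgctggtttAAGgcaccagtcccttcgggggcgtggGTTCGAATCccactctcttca
F46G11.t1, Pro: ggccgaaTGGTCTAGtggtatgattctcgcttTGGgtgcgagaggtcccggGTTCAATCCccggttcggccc
R04A9.t1, Gln: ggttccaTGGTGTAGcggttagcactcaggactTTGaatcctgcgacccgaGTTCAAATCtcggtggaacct
F28H6.t2, His: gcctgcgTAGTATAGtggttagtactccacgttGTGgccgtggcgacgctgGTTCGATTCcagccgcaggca
The third set shows arginine genes with the anticodon TCG, for which no X copy was marked. They were chosen after their values were seen, and they set off the marked C18A11.t2, which has the same amino acid and the anticodon ACG.
F49E7.t3, Arg: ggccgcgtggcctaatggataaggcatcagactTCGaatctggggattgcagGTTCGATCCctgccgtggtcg
C36C9.t2, Arg: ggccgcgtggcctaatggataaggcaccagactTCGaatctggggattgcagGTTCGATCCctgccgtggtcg
They differ by the substitution C27T, given with C36C9.t2 as the reference and F49E7.t3 as the other sequence, and with positions counted from 1 at the 5' end. Both set their B box core at base 53, as C18A11.t2 does.

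On X the genes looked alike in these elements whether or not they were marked. The B box core was found in 268 of the 276 genes on the gene's strand, and 173 of those 268 (64.6%) were marked, against 6 of the 8 without it. The A box core was found in 206 genes, of which 134 (65.0%) were marked, against 45 of 70 (64.3%) without it. A run of 4 T residues within 25 bp after the gene followed 273 genes, of which 178 were marked. On the autosomes 60.5% of the 253 genes with the A box core and 47.0% of the 83 without it were marked. The replicate lists gave 47.0% and 51.4% with it, and 34.9% and 39.8% without. For the B box core the autosomal shares were 58.0% of 319 genes with it and 41.2% of 17 without. Tiles of 72 bp along X give the background of these patterns on either strand. The B box core stood in 2.55% of the 245540 tiles and in 97.1% of the genes, and the A box core in 32.9% of tiles and 84.4% of genes. Both on the same strand stood in 0.430% of tiles and 72.5% of genes. These are matches of letters and do not show that a factor was bound.

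X tRNA genes carried a summit more often than protein-coding genes of the chromosome. The share marked was 64.9% (95% Wilson interval 59.1% to 70.2%, counting error only). By the same distance the background was 11.3% of the 2731 X protein-coding genes, 8.19% of all 46890 annotated nuclear genes and 4.95% of all base positions of X. In the thresholded list of replicate 1, 148 X tRNA genes (53.6%) were marked against 7.47% of X protein-coding genes, and in that of replicate 2, 156 (56.5%) against 9.08%. The mean over the replicates was 55.1% ± 2.05 (SD, n = 2). With the other thresholded series list 185 genes (67.0%) were marked, where the background was 11.5% of X protein-coding genes. Genes are not replicates and nearby genes share summits, so no test was made over genes.

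The autosomes gave a similar picture at a lower share. There 192 of 336 tRNA genes (57.1%, Wilson interval 51.8% to 62.3%) were marked, against 9.55% of autosomal protein-coding genes. The replicate lists gave 44.0% and 48.5% (46.3% ± 3.16, SD, n = 2), against 5.83% and 7.02%. Both replicate values on X were above both on the autosomes. The intervals of the conservative shares overlap, and they cover counting error only, with genes that share a summit counted apart. The autosomes were not uniform. Chromosome II had 75.4% and III 71.9% of their tRNA genes marked, both above X in that list, while I had 56.1%, IV 49.3% and V 39.7%. In the replicate lists chromosome II had 45.6% and 61.4%, below X in replicate 1, and III had 59.4% in both, above X. The X share was within the range of single chromosomes in each of these 3 lists.

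The replicates marked largely the same genes. Of the 179 marked genes, 131 were also marked in both replicate lists, 31 in either replicate alone and 17 in neither. These classes differed in signal, the enrichment that the authors give each peak on a scale that is not stated. A gene is given the signal of its strongest summit. The median was 232 (range 60.3 to 769) for genes in all 3 lists, 100 (69.6 to 232) for those in the conservative list and 1 replicate, and 76.7 (61.1 to 112) for those in the conservative list only. Across the 132 genes in both replicate lists, the signals had a Spearman rho of 0.912, given as a description across genes, some of which share a summit. The nearest summits of the replicates lay a median of 18 bp apart relative to the gene start, and within 50 bp for 115 of the 132 genes.

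**Figure D1:**
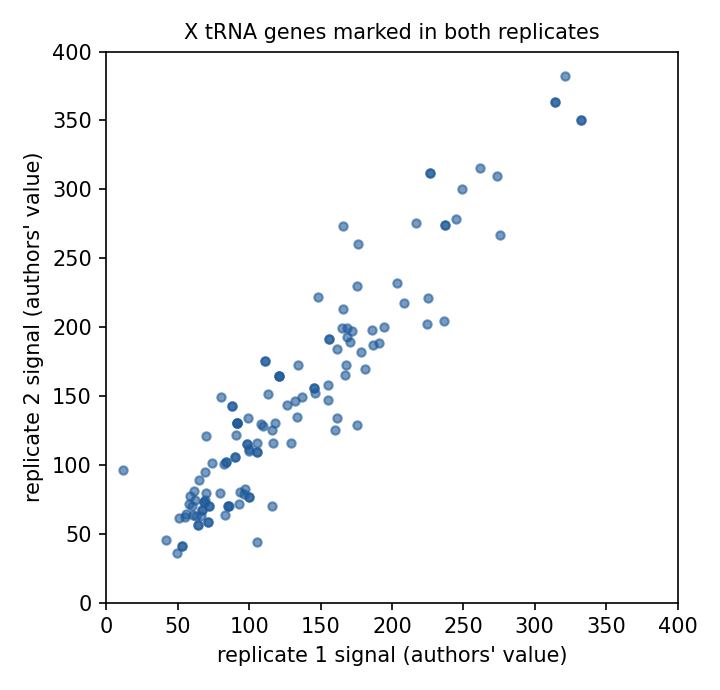
Signal of the strongest summit within 500 bp in the thresholded list of replicate 1 (x axis) and of replicate 2 (y axis), in the authors' units, for the 132 X tRNA genes marked in both. Each point is a gene, and genes that share a summit overlie each other, which darkens the point. The points follow a rising band up to C18A11.t2 at 321 and 382.

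Of the 97 unmarked genes, 87 were in no thresholded replicate list, and 84 were in neither a replicate list nor the other thresholded series list. That series list marked 11 of the 97, and 1 unmarked gene, C16H3.t1, was in both replicate lists. A peak stood near most unmarked genes in the full ranked list behind the conservative one, which lists peaks so densely that 62.8% of X protein-coding starts and 59.3% of X positions are within 500 bp of one. A ranked peak was within 500 bp of 74 unmarked genes, with a median signal of 48.3 (7.96 to 107), and 23 had none. The highest score among these peaks, a scaled IDR score in which the conservative list starts at 830, was 809. An unmarked gene is thus a gene with no summit of the conservative list in reach, which is not the same as absence of binding. The strongest such peaks were at C11G10.t1, an arginine gene in an intron of the innexin gene unc-7, with 107, and at the group of F12D9.t1, F12D9.t5 and F12D9.t6, which shared a peak of 94.0. C11G10.t1 was in the list of replicate 2 with 74.2 and not in that of replicate 1, and the F12D9 genes were in that of replicate 1 only. Both peaks were in the other thresholded series list, with the same signals and scores of 1000 and 982.

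Near tRNA genes the summits were stronger than those elsewhere on X. Of the 936 conservative summits on X, 149 (15.9%) lay within 500 bp of a tRNA gene start, against 180 of 3341 (5.39%) on the autosomes. With each summit counted once, their median signal was 176 (quartiles 108 and 312), against 106 for the other X summits. The replicate lists gave 98.7 against 72.9 and 110 against 74.3. On the autosomes the medians were 148 and 108. Of the 100 strongest summits of the genome 40 were on X, and 12 of these were at X tRNA genes, while 2 were at autosomal ones. The strongest X summits of all were elsewhere, with up to 1125, whereas the tRNA genes reached 769. Of the 149, 14 also lay within 500 bp of a protein-coding start, as did 31 of the 180 on the autosomes. The share among the other summits was not counted, so these counts cannot be called low or high.

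The strongest signal at an X tRNA gene was 769, at C18A11.t2, an arginine gene with the anticodon ACG that has 2 summits in reach. Its nearer summit was 96 bp past the start and the strong one 295 bp past it, both beyond the end of the 73-bp gene. The replicates gave it 321 and 382. The second was a tandem pair of alanine genes, F15G9.t1 and F15G9.t2, inside an intron of him-4, which encodes the extracellular matrix protein hemicentin. The pair shared a summit of 670, with 314 and 363 in the replicates. The interval is printed on the plus strand, chrX:9743589-9743818, with both genes in capitals and the gap between them in lower case, because the summit fell at base 78 of it, in the gap of 86 bp.
F15G9.t1 to F15G9.t2, Ala: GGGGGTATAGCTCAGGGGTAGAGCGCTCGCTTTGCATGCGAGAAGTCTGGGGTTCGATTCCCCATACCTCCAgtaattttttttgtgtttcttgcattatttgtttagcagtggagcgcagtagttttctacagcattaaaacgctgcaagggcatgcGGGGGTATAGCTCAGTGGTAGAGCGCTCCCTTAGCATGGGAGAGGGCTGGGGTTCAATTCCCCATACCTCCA

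The divergent pair of M02F4.t2 (Glu) and M02F4.t1 (Gly) shared a summit of 665, with 332 and 350 in the replicates. R11.t1, a tyrosine gene, had 591, with replicates at 262 and 315, and C04A11.t1, a leucine gene with an intron, had 588, with 274 and 310. In the second divergent pair, C53C7.t2 and C53C7.t1 (both Ser), the shared summit had 554, with 227 and 312. F41D9.t3 (Asn), antisense in an intron of the sulfate transporter gene sulp-3, had 547, with 249 and 300.0. C28G1.t1 (Glu), the only X tRNA gene here that overlaps an exon of a protein-coding gene, had 544, with 276 and 267. C33G3.t2 (Lys) had 532, with 245 and 278. At the weak end stood C25F6.t1, C25F6.t2 and C25F6.t3 (Met), tied at a shared summit of 61.1 that was in neither replicate list, and F22F1.t7 (Ile) with 60.3, given 106 and 43.9 in the replicates, the former from a summit also given to F22F1.t6.

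The summits lay on or close to the genes. Measured along the strand of the gene, the nearest summit was a median of 15 bp past the annotated start (quartiles -17.5 and 42.5 bp), over a median gene length of 72 bp. It lay within the gene for 94 of the 179 marked genes (52.5%), upstream for 63 and downstream for 22, and within 100 bp of the start for 151 (84.4%). The replicate lists gave medians of 13.5 and 13 bp. Autosomal tRNA genes had a median of 17 bp (quartiles -8.75 and 39) with 64.6% inside the gene. Most of the wide offsets were at genes with neighbours. Of the 93 marked genes with no other tRNA start within 1000 bp, 92 had the summit within 100 bp, at a median of 21 bp (quartiles 2 and 41), between the first bases and the B box core, which began at a median of base 52. Of the 86 marked genes with such a neighbour, 59 did, at a median of -2.5 bp (quartiles -61.25 and 49.75).

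**Figure D2:**
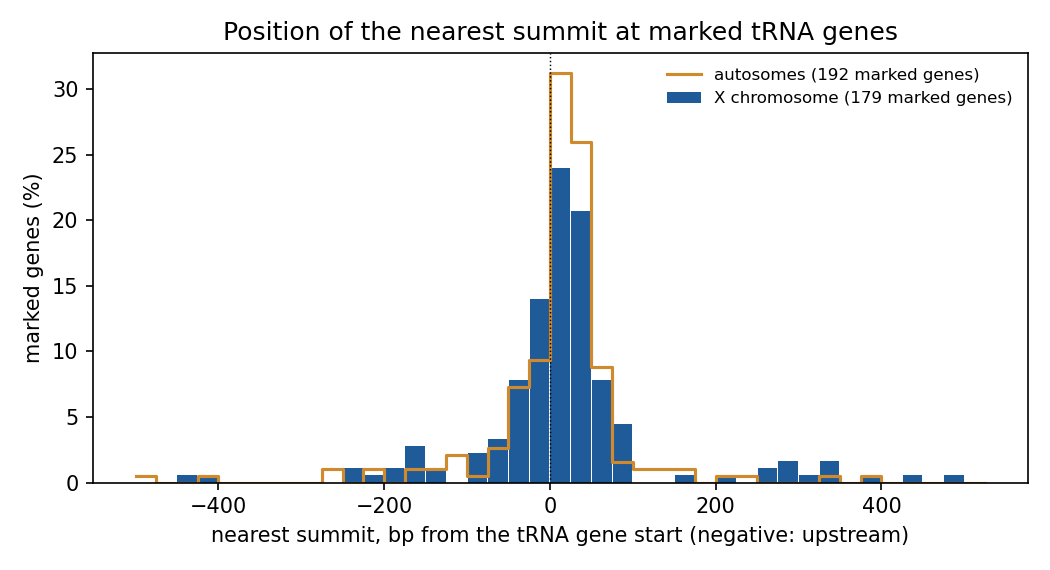
Distance of the nearest conservative summit from the tRNA gene start, in bp along the strand of the gene (x axis), as the percentage of marked genes per 25-bp bin (y axis). Blue bars are the 179 marked X genes and the orange line the 192 marked autosomal genes. Both peak just past the start, and both have some genes beyond 100 bp on either side. Within 100 bp were 151 of the X genes (84.4%) and 168 of the autosomal ones (87.5%).

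The distance of 500 bp therefore mattered for grouped genes. Just inside it were K01A12.t3 (496 bp), R04E5.t5 (-449 bp), K01A12.t1 (433 bp) and F41D9.t2 (-404 bp), each within 500 bp of another tRNA start. Just outside were K11E4.t4, in an intron of pix-1, and T01B4.t3, in an intron of the potassium channel gene twk-21, both 528 bp from a summit, then F11A1.t1 at 532 bp and R11.t2 at 573 bp. All 4 of these also had a tRNA neighbour whose start was 403 to 526 bp away. F11A1.t1 had a summit close by in other lists. It lay 27 bp past the start in the other thresholded series list (75.9) and 22 bp past it in replicate 1 (67.4).

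At 500 bp, grouped and lone genes on X were marked in nearly the same share. Of the 131 genes with another tRNA start within 1000 bp, 86 (65.6%, Wilson interval 57.2% to 73.2%) were marked, against 93 of 145 lone genes (64.1%, 56.1% to 71.5%). The replicate lists gave 55.7% ± 3.24 and 54.5% ± 0.975 (SD, n = 2). The order depended on how summits were assigned. Within 100 bp grouped genes had 45.0% and lone ones 63.4%, within 1000 bp 78.6% and 64.8%, and with each summit given to the nearest gene start alone 34.4% and 57.2%. At 500 bp the median signal was lower for grouped genes, 154 against 211. On the autosomes 70 of 99 grouped genes (70.7%) and 122 of 237 lone ones (51.5%) were marked, with replicate means of 52.0% ± 6.43 and 43.9% ± 1.79 (SD, n = 2). Taken as chains of neighbours, X held 198 units, 53 of them with 2 or more genes, and 133 units held a marked gene, 40 of the 53 among them. Of the 149 summits, 113 marked 1 gene, 31 marked 2 and 5 marked more, up to 5.

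Orientation went with a larger difference, within chains of exactly 2 genes. Among 17 divergent pairs, whose starts face each other, both genes were marked in 14, always by a single summit, and in 12 of these that summit lay between the genes. The median gap between divergent genes was 160 bp. Altogether 30 of 34 divergent genes (88.2%) were marked, against 16 of 32 tandem genes (50%), whose median gap was 521 bp, and 8 of 12 convergent ones (66.7%). In 7 of the 16 tandem pairs neither gene was marked. Replicate 1 gave 67.6% of divergent and 31.2% of tandem genes, and replicate 2 gave 82.4% and 40.6%. On the autosomes the order was the other way, with 26 of 40 divergent genes (65.0%) and 16 of 20 tandem genes (80%), or 27.5% and 55.0% in replicate 1 and 45.0% and 65.0% in replicate 2. The pairs on X are few, close starts are reached by the same summit, and the part of the gap in the difference was not tested.

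Larger groups ranged from wholly marked to wholly unmarked. In chains of 3 genes 11 of 27 (40.7%) were marked, with 12 and 8 in the replicates, and 4 of the 9 chains had no marked gene. Chains of 6 had 10 of 12 marked, but 6 in each replicate list. The largest chains held 6 genes. In the F22F1 group all 6 were marked through 4 summits. F22F1.t2 (Ser) and F22F1.t3 (Asp) shared a summit of 100 that replicate 1 alone also had, at 45.7. F22F1.t4 (Ser) had 109, with 58.2 and 77.6 in the replicates. That summit lay 278 bp past the start of F22F1.t4 and only 12 bp upstream of that of F22F1.t5. F22F1.t5 (Asp) and F22F1.t6 (Met) were given the strongest of the group, 183. It lay 7 bp past the start of F22F1.t6 and 433 bp past that of F22F1.t5. F22F1.t7 (Ile) is the weak gene given above.

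The groups named next were picked after their values were seen. In the F28H6 group of 6 identical histidine genes the outer pairs were marked, F28H6.t2 and F28H6.t7 by a summit of 112 and F28H6.t4 and F28H6.t5 by 75.7, while the inner F28H6.t3 and F28H6.t6 were not. Replicate 1 marked none of the 6, and replicate 2 and the other series list marked F28H6.t2 and F28H6.t7 alone. In the window of 250 bp to each side of the start, the share of 32-base words that occur once in the genome varied. It was 3.2% and 5.1% at the unmarked genes and ranged from 3.2% to 86.0% at the marked ones. Both groups of 5 were marked throughout, and both lie in introns. Those of K01A12.3 (Arg and Cys) shared a summit of 232, and those in ajm-1, an apical junction gene, all glutamine genes, had summits of 86.8 and 291. In the R11 group of 4 identical tyrosine genes R11.t1 alone was marked, with 591, and the other 3 had ranked peaks of 45.3 to 49.7. The unique share was 84.3% to 85.7% at all 4.

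Position inside a host gene went with no difference in the share marked on X. Of the 95 genes wholly within an intron of a protein-coding gene 61 (64.2%, Wilson interval 54.2% to 73.1%) were marked, against 118 of the 181 others (65.2%, 58.0% to 71.8%). The replicate lists gave 56.3% ± 0.744 and 54.4% ± 2.73 (SD, n = 2). Intronic genes on the strand of the host were marked in 30 of 50 cases (60%) and those on the opposite strand in 31 of 45 (68.9%). The intervals of 46.2% to 72.4% and 54.3% to 80.5% are wide and overlap, and they cover counting error only. The replicate lists did not show this difference, with 56.0% and 58.0% on the strand of the host and 55.6% in both on the opposite strand. The median signal was 211 for intronic genes and 176 for the others. On the autosomes 60.6% of 188 intronic and 52.7% of 148 other genes were marked. A protein-coding start within 500 bp made little difference either, with 17 of 26 such X genes (65.4%) and 162 of the 250 others (64.8%) marked.

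Every amino acid had at least 1 marked gene on X, and for 16 of the 20 more than 50% of the genes were marked. Methionine (7 of 8), asparagine (5 of 6), glutamine (12 of 15) and glycine (16 of 20) had the highest shares in the conservative list. For methionine this held in neither replicate, each of which marked 4 of 8, since 3 of the 7 genes share the summit of 61.1 that only the series lists have. Asparagine had 5 of 6 in both replicates. Histidine fell from 7 of 9 to 3 and 4. Tyrosine (3 of 8), isoleucine (6 of 13) and arginine (13 of 27) had the lowest, and phenylalanine had 3 of 6. Most Wilson intervals at these numbers are wide, such as 13.7% to 69.4% for tyrosine and 58.4% to 91.9% for glycine. Of the 3 genes with no amino acid in the RefSeq annotation 1 was marked, in neither replicate list. Share and signal ranked the amino acids differently. Among amino acids, the marked tyrosine genes had the highest median signal, 379, followed by leucine with 371, while histidine with 112 and methionine with 118 had the lowest. For several amino acids the strongest gene was one of the 12 above. For the others it was T14F9.t1 for aspartate (369), K01A12.t5, tied with K01A12.t2 and K01A12.t4 on a shared summit, for cysteine (232), R04A9.t1 for glutamine (517), C06G1.t1 for histidine (397), C42D8.t1 for isoleucine (443), C02F12.t1 for methionine (390), T28B4.t1 for phenylalanine (290), F46G11.t2, tied with F46G11.t1, for proline (516), R01H5.t1 for threonine (429), C03B1.t1 for tryptophan (287) and R04D3.t2 for valine (450).

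**Figure D3:**
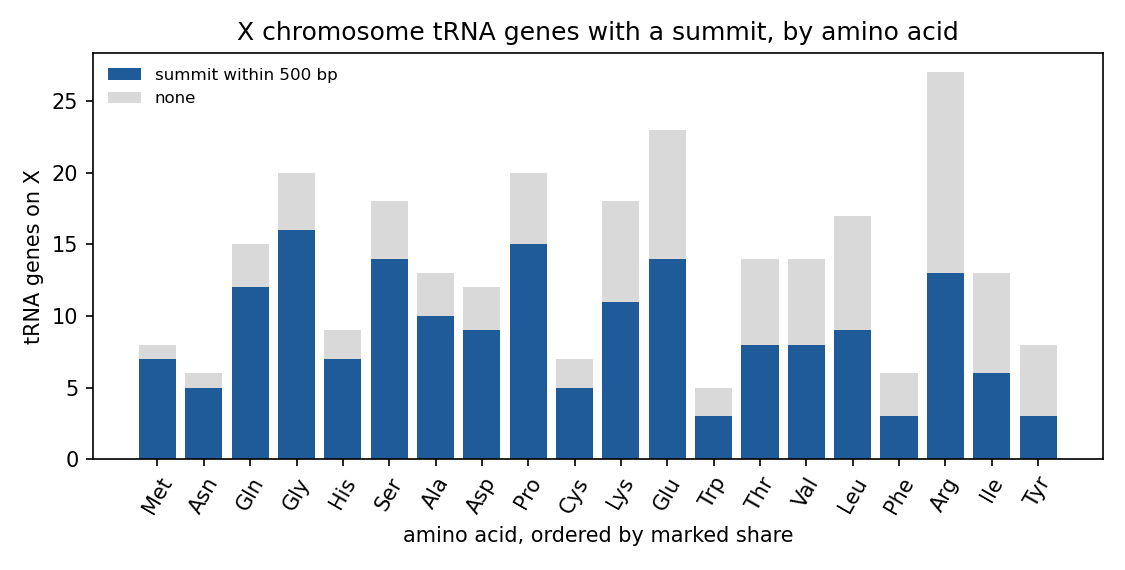
Number of X tRNA genes for each amino acid (y axis), split into those with a conservative summit within 500 bp (blue) and those without (grey), with the amino acids ordered by the share marked (x axis). The 3 genes with no amino acid given are left out. Methionine (7 of 8) is at the left end and tyrosine (3 of 8) at the right.

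Anticodons of the same amino acid could differ. The anticodon was read from the sequence for 268 genes, with 44 different ones, and the sets compared here were picked after their values were seen. Arginine genes with the anticodon ACG, the main reader of CGU codons, were marked in 10 of 13 cases. Those with TCG were marked in 0 of 6, with a Wilson interval up to 39.0%, and in neither replicate list. The share of 32-base words around them that occur once in the genome was 78.3% to 96.0%. F49E7.t3 and F49E7.t2 had ranked peaks of 49.7 and 48.3, C36C9.t2 had 22.0 and C34E11.t1 had 7.96, while F17A2.t1 and F38E9.t2 had none. The autosomes have 3 genes with this anticodon, all identical to F17A2.t1 of X, and all 3 were marked, with signals of 175 to 257. Glutamate genes with TTC were marked in 7 of 8 cases and those with CTC in 7 of 15. Leucine genes with AAG were marked in 3 of 10 cases on X and in 8 of 9 on the autosomes, where the replicates had 5 and 4. All 4 glycine genes with GCC and all 4 threonine genes with TGT were marked, against 3 of 7 threonine genes with AGT. On the autosomes the threonine order was the other way, with 2 of 5 for TGT and 8 of 10 for AGT. Autosomal glutamate genes were marked in 6 of 9 cases for TTC and in 6 of 9 for CTC. For autosomal glycine genes with GCC it was 7 of 11.

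Identical sequence did not give identical marking. Of the families with 5 or more identical genes on X there were 20, with 162 genes, of which 110 were marked. In 17 families some copies were marked and some were not, and in 3 all were, the asparagine GTT, methionine CAT and serine AGA families of 5 genes each. Each of these 3 included genes marked only by a summit nearer to another tRNA gene. They were F22F1.t2 and F22F1.t4 (Ser) at 224 and 278 bp, ZK154.t2 (Asn) at 295 bp, and C25F6.t1 and C25F6.t3 (Met) at 397 and -237 bp. In each replicate list the asparagine family was again marked in full, the serine family in 4 genes and the methionine family in 2, without C25F6.t1, C25F6.t2 and C25F6.t3. Within a family, the strongest marked copy had 1.56 to 8.36 times the signal of the weakest, with a median of 5.38 over the 20 families. The signal is that of the strongest summit within 500 bp, which neighbouring genes can share, so these ratios are not differences between genes alone. The M02F4 summit of 665 was the maximum of both the glutamate CTC family and the glycine TCC family, which had the ratio of 8.36. The 769 of C18A11.t2 was from the summit 295 bp past its start. The proline family of F46G11.t1, the largest on X with 13 copies, had 10 marked copies of 70.4 to 516. In the arginine ACG family, with 10 copies all on X, 8 were marked, at 145 to 769. In the leucine AAG family of C04E7.t1, with 9 copies all on X, 3 were marked: C04E7.t1 itself at 439, F14B8.t1 at 149 and C05E7.t3 at 90.2. The tyrosine family of R11.t1 has 6 copies, all on X, and R11.t1 at 591 and C02B4.t2 at 379 were the marked ones.

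**Figure D4:**
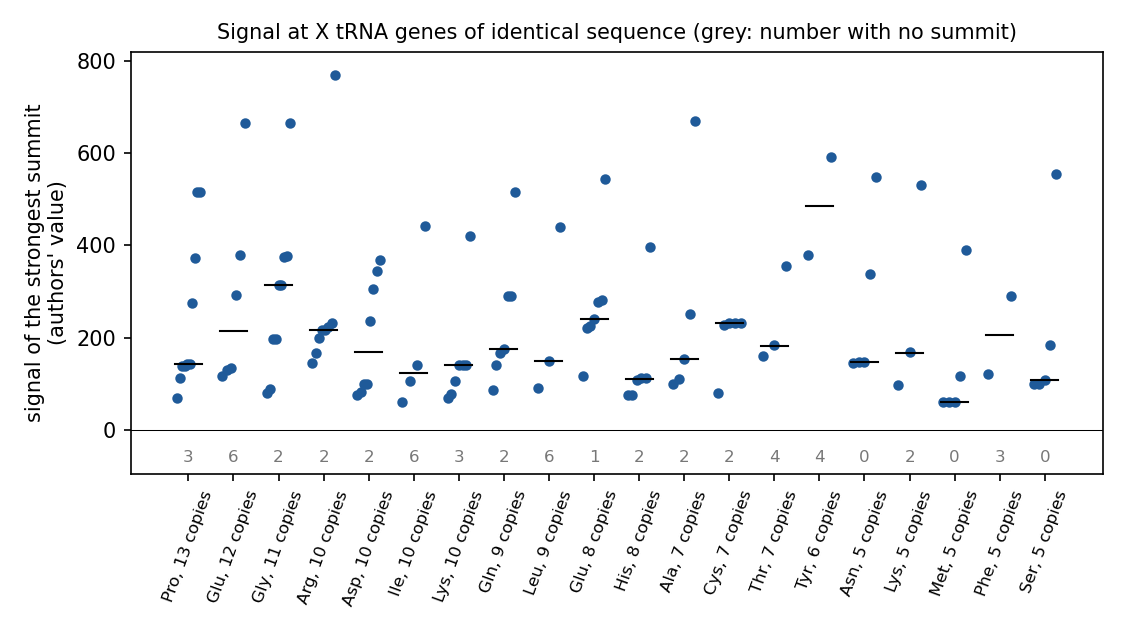
Signal of the strongest conservative summit (y axis, the authors' units) at each marked gene of the 20 families of identical tRNA genes with 5 or more copies on X (x axis, amino acid and number of copies). Each point is a gene, black lines are the family medians and grey numbers count the unmarked copies. A summit shared by neighbouring genes is given to each of them. The strongest copy has 1.56 to 8.36 times the signal of the weakest, and unmarked copies stand beside them in 17 families.

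Genes with a sequence found once in the genome were marked less often than genes with copies, 29 of 57 (50.9%) against 150 of 219 (68.5%), with Wilson intervals of 38.3% to 63.4% and 62.1% to 74.3%. The autosomes gave 41.9% and 62.4%, with replicate means of 30.2% ± 3.29 and 51.8% ± 3.11 (SD, n = 2). Where reads are hard to place the picture was thin. Of the 12 X genes with under 60% unique 32-base words around the start, 5 were marked, with 0 in replicate 1 and 2 in replicate 2. Of 21 such autosomal genes 3 were, with 0 and 3. The shares on X were 67.6% of 37 genes at 60% to 80%, 67.8% of 177 at 80% to 90% and 58.0% of 50 at 90% or more. How the authors treated reads that map to several places is not given in the sources used here, and its part in these shares was not tested. The 12 X genes with an intron were marked in 6 cases, with a median signal of 376 among them, against 173 of 264 genes without one, with a median of 176.

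Along the chromosome the marked genes were spread unevenly. The interval from 8 to 9 Mb alone held 51 of the 276 genes, of which 35 (68.6%) were marked. All 9 genes from 3 to 4 Mb and all 6 from 6 to 7 Mb were marked. Of the 12 genes from 1 to 2 Mb 3 were marked, and of the 32 from 16 to 17 Mb 12 (37.5%), with replicate values of 29.7% ± 2.21 (SD, n = 2). The bins hold few independent groups of genes. The 2 genes beyond 17 Mb, C16H3.t1 and C16H3.t2, had no conservative summit. The list of replicate 2 marked both, with 96.4, that of replicate 1 marked C16H3.t1, with 11.6, and the other thresholded series list marked both, with 166.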

How the data were processed

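Peak lists of 2 anti-GFP chromatin immunoprecipitation samples were used, with the labels' biological replicate numbers 1 and 2. Per the deposited file listing, each list rests on alignments of the replicates and of a control to ce11. The sources used here do not give the aligner or the peak caller. The authors deposited for each peak a score (scaled IDR), a signal of unstated scale, a −log10 q-value and, in the ranked lists, a −log10 global IDR. Without read counts in the files, the depth is unknown. Intervals are 95% Wilson intervals over genes and cover counting error only.

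Summits were made 1-based and compared with tRNA gene starts of Ensembl release 115. Sequence and amino acids came from RefSeq on the same build, and exact copies and 32-base words from the whole genome. The main list was the conservative list for both replicates, with each replicate's list beside it. Signals were compared within a list. With 1 group no test was made. The genes and sets were chosen with earlier results of these data known. The text names by rule the 12 strongest genes marked in all 3 lists, the 3 weakest (and a gene tied with them), the 4 nearest to each side of the distance limit, the strongest of each amino acid with 5 or more genes, the largest chain and the 4 unmarked genes with the strongest ranked peak. Others are examples of families or are said to have been picked afterwards. The marking step was tested on simulated data with planted summits. Python 3.11.15, numpy 2.4.6, scipy 1.17.1 and matplotlib 3.10.9 were used.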

Additional observations from a re-analysis of the deposited data

How the results depend on the processing

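In all 14 alternatives the share of marked tRNA genes was higher on X than on the autosomes, but not all of these are separate checks. A global IDR of at most 0.01 and the strongest summit of each merged region left both shares at their main values. With the nearest start of any type alone the shares were nearly equal, 46.4% and 46.1%, where the replicate SDs were 2.05 and 3.16. Each value is called moved when it shifted by more than the SD of the 2 replicates. The share on X was 53.6% to 56.5% with either replicate's list alone (autosomes 44.0% to 48.5%), and the median offset was 13 to 13.5 bp, the median signal 98.7 to 110, intronic genes 55.8% to 56.8%, other genes 52.5% to 56.4%, grouped genes 53.4% to 58.0% and lone genes 53.8% to 55.2%. The other thresholded list gave 67.0% on X, an offset of 14 bp, a signal of 167, 66.3% of intronic and 69.5% of grouped genes. Summits at or above the list's median signal gave 48.9% (autosomes 39.9%), 12 bp, 240, intronic 51.6%, other 47.5%, grouped 47.3% and lone 50.3%. A distance of 100 bp gave 54.7% (autosomes 50%), intronic 53.7%, other 55.2% and grouped 45.0%. A distance of 250 bp gave 59.8%, 13 bp, intronic 57.9%, other 60.8% and grouped 55.0%. A distance of 1000 bp gave 71.4% (autosomes 61.9%), 14 bp, 167, intronic 68.4%, other 72.9% and grouped 78.6%. Lone genes stayed at 63.4% to 64.8% over the 3 distances. Where a summit counted only for the nearest start of any gene, X had 46.4% (autosomes 46.1%), 13.5 bp, 187, intronic 45.3%, other 47.0%, grouped 34.4% and lone 57.2%. By that rule a summit shared by tRNA genes counts for the nearest alone, and a start of another gene type can take a summit. The part of each was not tested. The strongest summit of each merged region moved the offset alone, to 14 bp. Neighbour distances of 500 and 5000 bp gave lone genes 61.0% and 68.0%, and 500 bp gave grouped genes 71.7%. A global IDR of at most 0.01 leaves the list as it is.

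Chosen after seeing the data, a global IDR of at most 0.001 gave 49.3% (autosomes 42.6%), 12.5 bp, 240, intronic 52.6%, other 47.5%, grouped 47.3% and lone 51.0%. A q-value of at most 0.05 gave 61.6% (autosomes 53.3%), 13.5 bp, 198, intronic 63.2%, other 60.8%, grouped 61.8% and lone 61.4%. Chains counted once gave 67.2% on X. Beyond the construction of each alternative the cause of the shifts was not tested. Both replicates come from 1 strain and stage, and the lists set no limit on what a deeper library would show at the unmarked genes.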
